A study of Rattus norvegicus with 108 samples.

Results

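The 8 genes followed here are Hmgcs1, Idi1, Fdps, Fdft1, Sqle, Lss, Dhcr7 and Insig1, which code for 7 enzymes of cholesterol synthesis and 1 sensor of its end product. They were taken by gene symbol from the 19127 genes of the count tables, and each symbol had a row in both tables. Single-cell RNA profiles (10x Genomics 3′ chemistry) came from micropunches of dentate gyrus, taken dorsally (dorDG) or ventrally (venDG), of male rats aged 2 months when treatment began, which the labels call Charles River rats and the methods Long-Evans rats from that supplier. The rats took fluoxetine, a serotonin reuptake inhibitor, at 18 mg/kg (FT) or water alone (Sham) ad libitum for 6 weeks, and the labels name no allele. The dorDG groups had 4 FT replicates (there is no dorDG FT replicate 3) and 5 Sham replicates, and each venDG group had 5. Each replicate was a pool of tissue from several animals, so that the spread between animals cannot be read from it.

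The tables used here held 1289 dorDG and 2058 venDG cells. UMIs (unique molecular identifiers, 1 per captured molecule) per replicate ranged from 220162 to 1523537. Levels are given as UMIs per 10000 UMIs of the same cells, and replicates, not cells, are the n of each mean ± SD and each test. Of the 19 replicates, 8 (replicates 1 and 2 of each group) had 2 sample names in the labels and 11 had 1. Each name, with its 4 libraries, is taken here as 1 droplet reaction. First and second reactions follow the order of these names, and the labels give no order of runs. The labels speak of nuclei only, whereas the methods of the study mention both nuclei and whole cells, and neither says which reaction held which. Cells in which ribosomal protein genes gave under 2% of UMIs (low-ribosomal cells) made up 37.7% of all cells, but 78.3% to 97.3% of the cells in the second reactions against 4.08% to 18.4% in the first. In dorDG their share also moved with the treatment, from 15.2% to 43.6% of cells in FT replicates and from 33.3% to 73% in Sham replicates. The 12 cell type names of dorDG are the authors' own. The oligodendrocyte, astrocyte, microglia, OPC and endothelial names went with their markers, but cells named Mossy had 1 of 5 mossy cell markers above 0 and the highest summed level of mural markers of the 12 types (17.5 UMIs per 10000). Cells named Granule carried 818 UMIs per 10000 of hemoglobin and other erythroid markers, and those named InhibNeuron had 0.51 UMIs per 10000 of Gad1, Gad2 and Slc32a1 together. These 3 names are used below only as labels.

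Cells make cholesterol from acetyl-CoA through the mevalonate pathway, and in the adult brain nearly all of it is made locally, by astrocytes and by oligodendrocytes, which build it into myelin. When sterol in the endoplasmic reticulum runs low, the SCAP protein escorts SREBP2 to the Golgi, where it is cut into an active transcription factor that turns on the genes of the pathway together. Hmgcs1 condenses acetyl-CoA units into HMG-CoA early in the pathway, Idi1 isomerizes its isoprenoid unit, and Fdps joins such units into farnesyl pyrophosphate. Fdft1 makes squalene, Sqle oxidizes it, Lss folds it into lanosterol, the first sterol, and Dhcr7 completes cholesterol in its last reduction. Insig1 is no enzyme but holds SCAP and SREBP2 back in the endoplasmic reticulum when sterol is plentiful.

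Promoter sequences were shown for 4 of the genes on which the results turn, because the members share a regulator that works with CCAAT-binding factors. RefSeq promoter windows (build GRCr8) of 300 bases, from 250 before to 50 after the transcription start, were held for 6 of the 8 genes; Sqle and Fdft1 had no entry. Both strands were searched for TCACNCCAC, the classical sterol regulatory element, and for CCAAT. Other forms of the sterol element were not searched for. Capitals mark CCAAT or its reverse complement ATTGG, and each sequence is the stretch of the window around the matches, 5′ to 3′ on the strand of the gene, and ends before the transcription start.
Hmgcs1, chr2:53382096-53382195, plus strand: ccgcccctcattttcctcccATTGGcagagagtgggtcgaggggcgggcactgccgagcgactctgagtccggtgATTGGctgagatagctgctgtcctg
Idi1, chr17:66547535-66547610, minus strand: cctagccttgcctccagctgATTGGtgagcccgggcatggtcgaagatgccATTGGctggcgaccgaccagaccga
Fdps, chr2:176804877-176804966, minus strand: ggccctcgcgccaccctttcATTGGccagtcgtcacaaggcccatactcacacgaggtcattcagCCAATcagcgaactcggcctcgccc
Lss, chr20:12118288-12118332, minus strand: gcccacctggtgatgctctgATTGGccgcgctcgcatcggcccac
CCAAT was found in 5 of the 6 windows (2 matches each in Hmgcs1, Idi1 and Fdps, 1 each in Lss and Insig1, 0 in Dhcr7) and in 37.5% of all 33469 windows. TCACNCCAC was found in 0 of the 6 windows and in 1.12% of all.

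Across the 12 dorDG types the 8 genes together were highest in Oligodend2 cells, at 22.4 ± 12.1 UMIs per 10000 (n = 7, counting replicates that held 5 or more such cells). AstroSub1 cells were next, at 10.7 ± 4.83 (n = 8). OPC cells (oligodendrocyte precursors) had 5.93 ± 1.18 (n = 7), Oligodend1 cells 5.79 ± 1.01 (n = 9) and Microglia1 cells 5.06 ± 1.43 (n = 9). The lower end of the order was held by ExcitNeuron cells at 3.52 ± 1.57 (n = 4) and InhibNeuron cells at 3.31 ± 1.253 (n = 6). No type differed from its neighbour in this order by more than the larger of their SDs, and the gap of 11.7 between Oligodend2 and AstroSub1 was just under the SD of 12.1. In the cells of at least 2% ribosomal UMIs, pooled over replicates, the order below the first 2 types was another one: Granule cells had 8.05 (21 cells) and ExcitNeuron cells 5.49 (9 cells), beside 6.55 in OPC, 5.05 in Microglia1 and 2.97 in InhibNeuron cells. These are descriptions without a test, since types were named from the same cells.

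**Figure D1:**
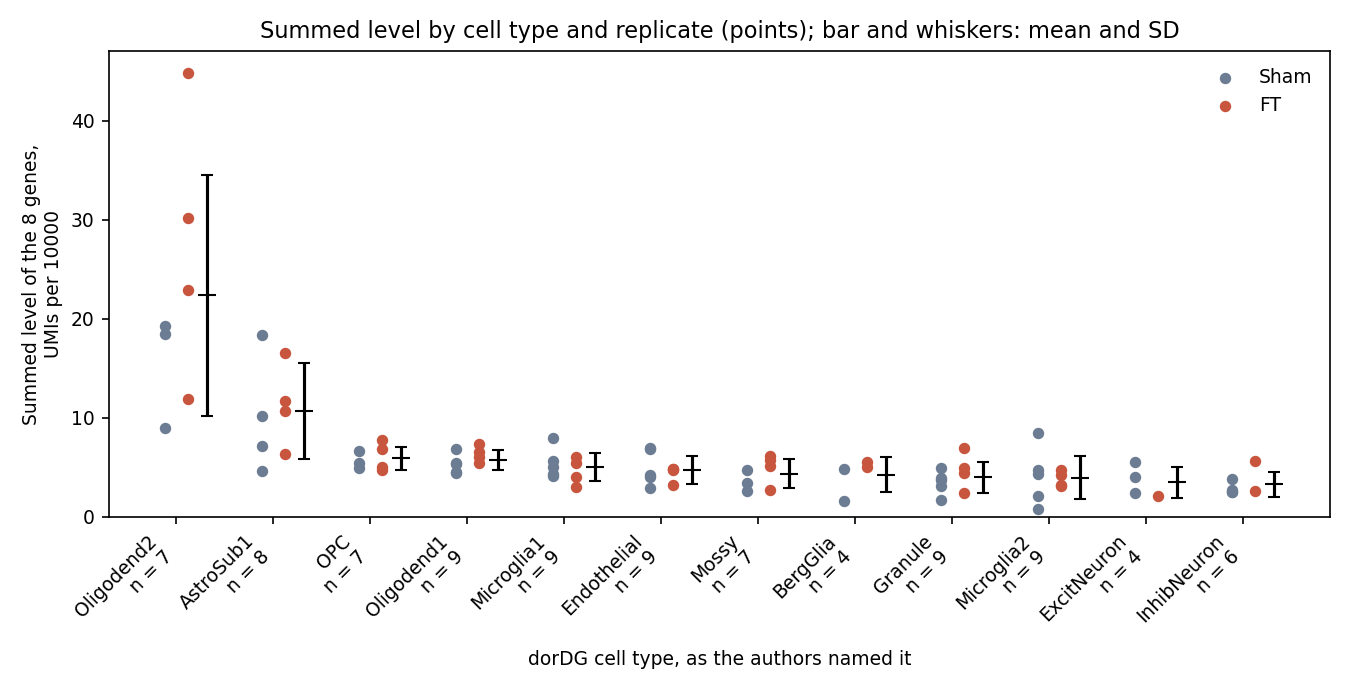
Summed level of the 8 genes (y axis, UMIs per 10000) in each dorDG cell type (x axis, with the number of replicates), 1 point per replicate, FT in red and Sham in grey, with mean and SD in black. Oligodend2 replicates ran from 8.94 to 44.9 and stood above most others, followed by AstroSub1.

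Oligodend1 and Oligodend2 cells had similar summed levels of 5 oligodendrocyte markers (Mbp, Mog, Mag, Mobp and Cldn11), 250.5 and 226 UMIs per 10000, but not of the synthesis genes. Idi1 was 10 ± 7.01 in Oligodend2 and 0.88 ± 0.42 in Oligodend1. Sqle was 2.09 ± 1.03 against 0.4 ± 0.28, Insig1 1.99 ± 0.81 against 0.36 ± 0.33, and Hmgcs1 3.76 ± 1.88 against 1.18 ± 0.52. The other genes were closer between the 2 oligodendrocyte types. Fdps was 2.63 ± 1.17 against 1.77 ± 0.6, Fdft1 0.98 ± 0.51 against 0.69 ± 0.28, Lss 0.72 ± 0.66 against 0.38 ± 0.27 and Dhcr7 0.16 ± 0.17 against 0.13 ± 0.13. The types also differed in RNA content and in the share of low-ribosomal cells, with a median of 7050 UMIs per cell and 12.6% low-ribosomal cells in Oligodend2 and 2499 UMIs and 50.9% in Oligodend1. Among cells of at least 2% ribosomal UMIs alone, the summed level was 23.5 ± 12.8 (n = 6) in Oligodend2 and 6.68 ± 0.92 (n = 7) in Oligodend1.

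AstroSub1 cells had a different balance of the genes. Hmgcs1 had its highest mean there, 4.39 ± 2.9 UMIs per 10000, above Oligodend2 by less than the larger SD. Dhcr7, at 0.73 ± 0.87, had its highest mean there too, on 17 UMIs in 110 cells. Idi1, by contrast, was 0.87 ± 0.8 in AstroSub1 against 10 in Oligodend2. Cells named InhibNeuron and ExcitNeuron were low for Idi1 (0.3 ± 0.14 and 0.25 ± 0.2) and for Insig1 (0.17 ± 0.27 and 0.17 ± 0.2). They were among the higher types for Lss, with 0.75 ± 0.3 in InhibNeuron and 0.74 ± 0.32 in ExcitNeuron against 0.93 ± 1.01 in AstroSub1. The InhibNeuron and ExcitNeuron types held 80.3% and 83.6% low-ribosomal cells, in which their pooled Lss was 0.91 and 0.79, against 0.49 and 0.1 in their other cells. Lss in microglia was at 0.17 ± 0.13 (Microglia1) and 0.11 ± 0.28 (Microglia2). Fdps ran from 0.39 ± 0.32 in Microglia2 to 2.63 ± 1.17 in Oligodend2. RNA of oligodendrocytes was present in every type (40.4 to 97.8 UMIs per 10000 of the 5 markers in the types not named for oligodendrocytes), and its part in the members' low levels there was not tested.

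**Figure D2:**
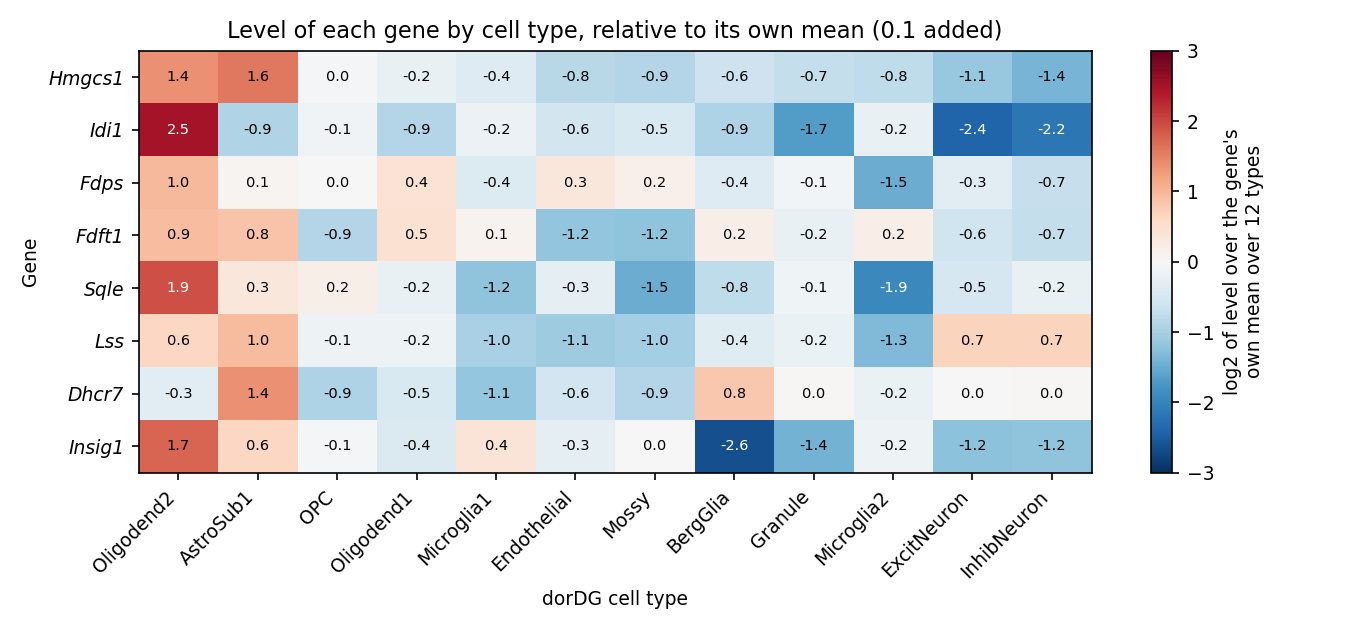
Level of each gene (rows) in each dorDG cell type (columns), as log2 of its mean over replicates relative to the gene's own mean over the 12 types, with 0.1 UMIs per 10000 added to each. Hmgcs1, Idi1, Sqle and Insig1 are strong in Oligodend2 (1.38, 2.48, 1.92 and 1.74), whereas Hmgcs1 and Dhcr7 are strongest in AstroSub1 (1.59 and 1.38). Lss is raised in AstroSub1 (0.95), InhibNeuron (0.68), ExcitNeuron (0.66) and Oligodend2 (0.63).

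The members did not all follow one another over the 12 types. On the log2 scale the Pearson correlation of their type means was 0.74 between Idi1 and Insig1, 0.74 between Fdps and Sqle and 0.72 between Hmgcs1 and Fdft1, but -0.14 between Idi1 and Lss and -0.31 between Dhcr7 and Insig1. Outside the pathway lists, the 5 genes most like the summed level of the members among 4230 compared were Rab10 (r = 0.82), Dusp10 (0.77), Snapc2 (0.77), Gstt3 (0.76) and Arl6ip1 (0.75), each correlation over 12 types whose cells share libraries. All of these but Gstt3 were highest in Oligodend2, for instance Dusp10 at 4.58 UMIs per 10000 against 0.08 in InhibNeuron cells, and Gstt3 was highest in Oligodend1 at 3.92.

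Large differences lay between the reactions of one replicate. In the 8 replicates with both, Idi1 ran from 1.26 to 4.32 UMIs per 10000 (median 2.46) in the first reactions. It ran from 0.1 to 0.25 (median 0.15) in the second. Hmgcs1 ran from 1.1 to 2.51 (median 1.45) in the first and from 0.12 to 0.69 (median 0.3) in the second. Insig1 fell from a median of 0.81 to 0.19, and Sqle from 0.5 to 0.16. Differences between reactions were common over all genes, with 39.9% called lower and 44.2% called higher in the test below. Fdps was lower in the second reaction of all 8 replicates, with medians of 1.49 and 0.97, and its ranges overlapped. Lss went the other way, with a median of 0.25 in the first and 0.4 in the second reactions, and was lower in only 1 of 8 second reactions.

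**Figure D3:**
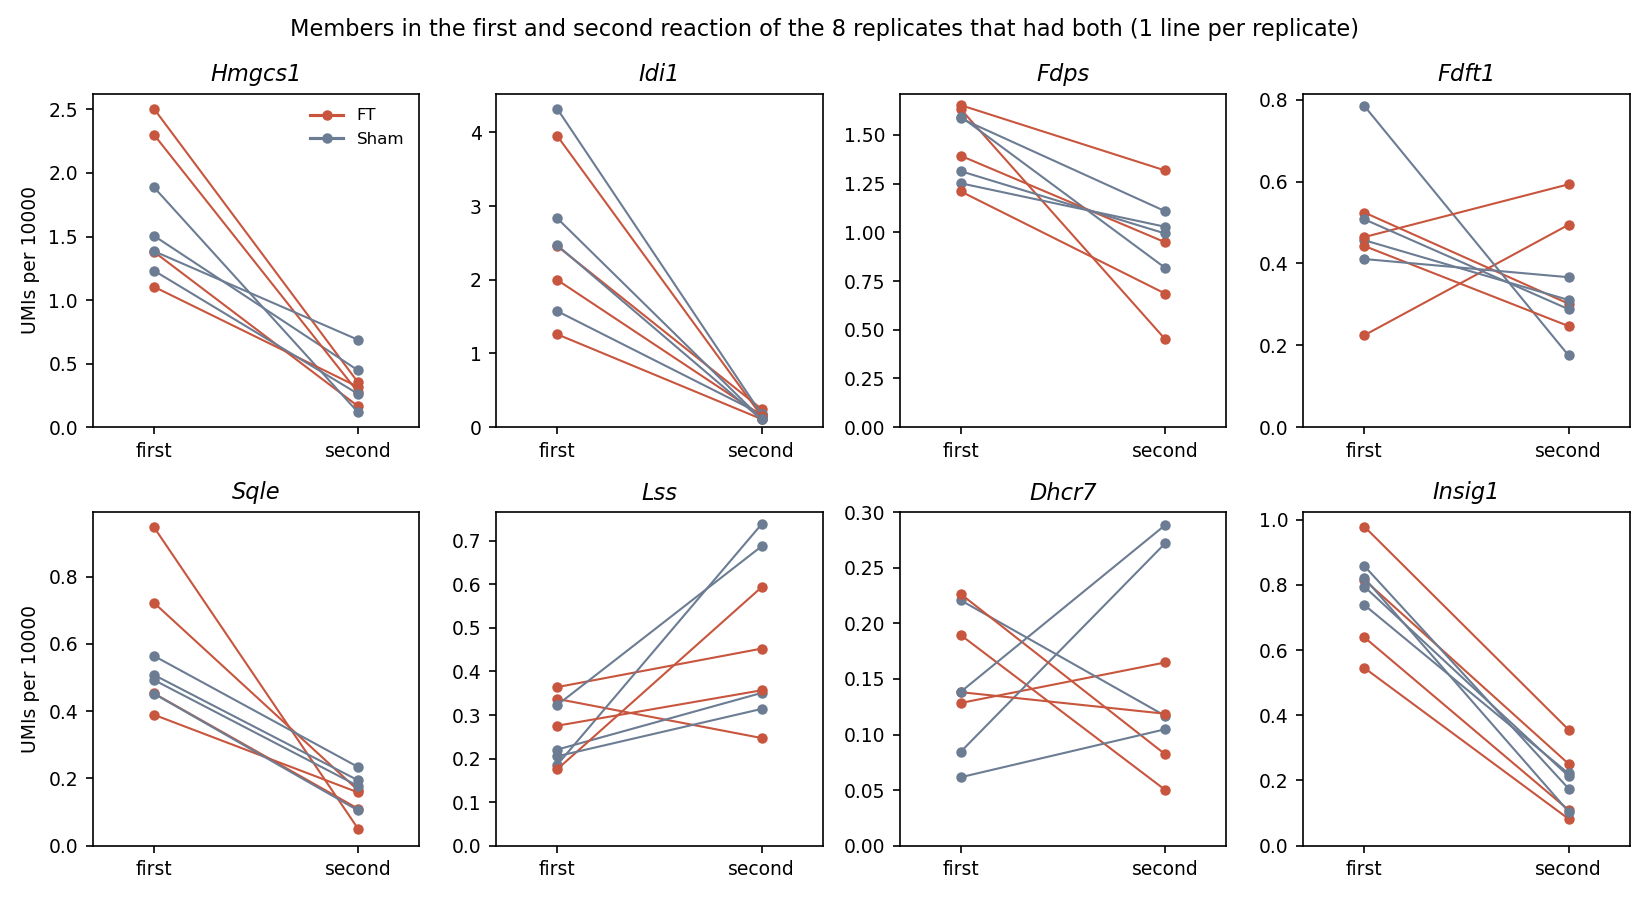
Level of each gene (y axis, UMIs per 10000, from 0) in the first and second reaction (x axis) of the 8 replicates that had both, 1 line per replicate, FT in red and Sham in grey. Idi1, Hmgcs1, Sqle and Insig1 fell in all 8 replicates, and the second reaction was the lower one in 6 for Fdft1, 4 for Dhcr7 and 1 for Lss.

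In the edgeR quasi-likelihood test, with the replicate as block, genes were called where the p adjusted by the Benjamini-Hochberg method did not exceed 0.2 and the log2 difference was at least 0.32. At a mean of at least 0.5 UMIs per 10000, the filter used unless stated, only Idi1, Hmgcs1 and Fdps were tested, and 39.9% of all genes tested were called lower in the second reactions. Idi1 fell by 4.45 ± 0.24 on the log2 scale (SE; adjusted p = 2.72e-09), Hmgcs1 by 2.72 ± 0.26 (adjusted p = 2.52e-07) and Fdps by 1.15 ± 0.19 (adjusted p = 5.35e-05). With genes down to a mean of 0.1 UMIs per 10000 all 8 members were tested, 6 were called lower, and 35.9% of genes were called lower. The further 3 were Insig1, which fell by 2.57 ± 0.24, Sqle by 2.38 ± 0.28 and Fdft1 by 1.04 ± 0.28 on the log2 scale (adjusted p = 0.00353 for Fdft1, the largest of the 3). Dhcr7, at -0.49 ± 0.39 (adjusted p = 0.298), and Lss, at 0.32 ± 0.27 (adjusted p = 0.302), were not called. Of 15 other genes of the pathway lists tested at the 0.5 filter, 9 were called lower and 2 higher, beside 44.2% of all genes called higher. The sterol enzymes Msmo1 and Cyp51 fell by 2.76 ± 0.29 and 1.83 ± 0.25, Mvd by 0.48 ± 0.24, the lysosomal cholesterol carriers Npc2 and Npc1 by 3.48 ± 0.48 and 1.21 ± 0.22, and Mylip, which targets the LDL receptor for breakdown, by 0.8 ± 0.25. The lipid carrier Apoe fell by 1.88 ± 0.26, the fatty acid desaturase Fads2 by 1.12 ± 0.23 and Acly, which makes acetyl-CoA, by 0.58 ± 0.22. Scap, the escort of SREBP2, rose by 0.33 ± 0.18 and Acaca, the entry enzyme of fatty acid synthesis, by 1.56 ± 0.2 on the log2 scale.

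The same split was seen between cells within replicates. In all 19 replicates the summed level of the 8 genes was higher in cells of at least 2% ribosomal UMIs (7.98 ± 1.83 per 10000) than in low-ribosomal cells (3.62 ± 1.41). Idi1 was 2.55 ± 1.13 against 0.43 ± 0.42 and higher in 19 of 19 replicates, as were Hmgcs1 (1.66 ± 0.47 against 0.57 ± 0.27) and Insig1 (0.75 ± 0.25 against 0.21 ± 0.16). Lss was 0.27 ± 0.12 against 0.62 ± 0.3 and higher in 1 of 19, and Dhcr7 was 0.13 ± 0.05 against 0.21 ± 0.1 and higher in 4 of 19. The makeup of cell types differed between these sets of cells. Within each of the 12 dorDG types, pooled over replicates, the 8 genes together were also higher in the cells of at least 2% ribosomal UMIs, from 23.6 against 3.67 in Oligodend2 and 4.92 against 0.998 in Endothelial to 2.97 against 2.77 in InhibNeuron cells. In the sums over a whole replicate that follow, fewer cells of a type and less RNA per cell cannot be told apart.

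In dorDG the 4 members tested all had positive differences of FT against Sham, and 2 of them were called. Hmgcs1 in dorDG FT replicates 1, 2, 4 and 5 was 1.18, 2.02, 1.18 and 2.18 UMIs per 10000, and in Sham replicates 1 to 5 it was 1.01, 1.36, 0.75, 0.97 and 1.24. FT replicates 2 and 5 stood above all Sham replicates, and FT replicates 1 and 4 lay within the Sham range. The log2 fold change was 0.68 ± 0.27 (adjusted p = 0.172), which passed the thresholds.

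Fdps in dorDG was 1.6, 1.37, 1.51 and 1.75 in the FT replicates and 1.15, 1.36, 0.84, 1.46 and 0.93 in the Sham replicates, so that only FT replicate 2 lay within the Sham range. Its log2 fold change was 0.5 ± 0.24 (adjusted p = 0.196), just past the threshold. Idi1 was 2.1, 3.1, 1.28 and 3.01 in FT and 0.92, 3.09, 1.47, 0.85 and 1.31 in Sham. Sham replicate 2 was as high as the highest FT replicates, and the difference of 0.67 ± 0.4 (adjusted p = 0.262) was not called. Insig1, at 0.64 ± 0.13 in FT and 0.57 ± 0.33 in Sham, differed by 0.24 ± 0.35 (adjusted p = 0.631).

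**Figure D4:**
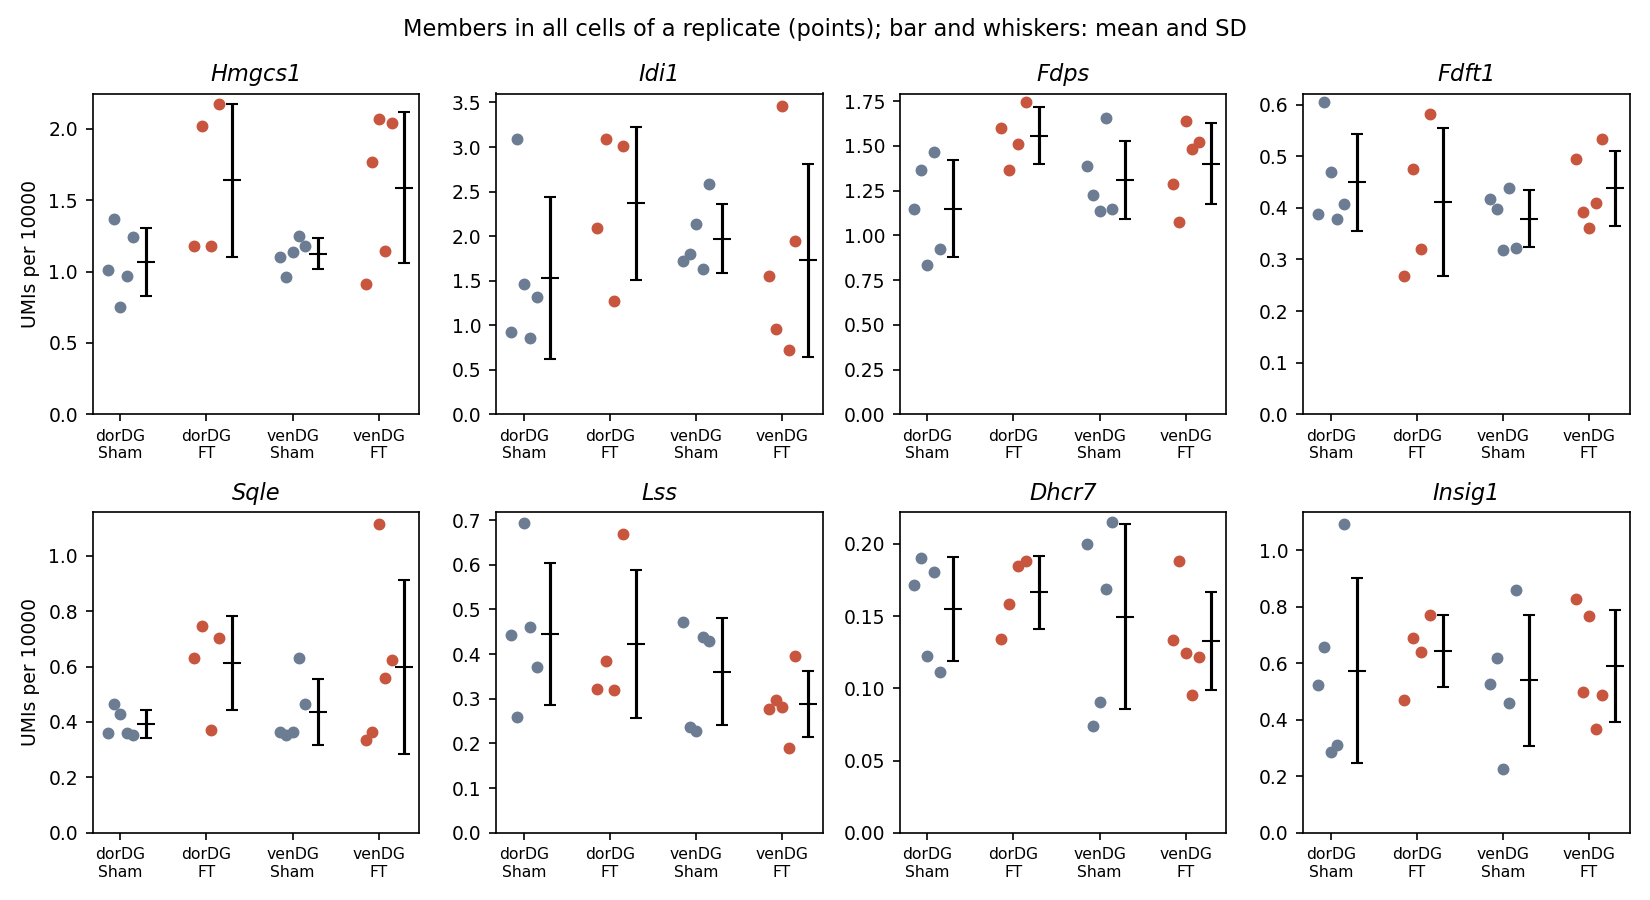
Level of each gene (y axis, UMIs per 10000, from 0) over all cells of a replicate in the 4 groups (x axis), 1 point per replicate, with mean and SD in black, FT in red and Sham in grey. The groups overlap for every gene in both regions, with the FT means of Hmgcs1 (1.64 and 1.59) above those of Sham (1.07 and 1.12) in dorDG and venDG.

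Sqle, Fdft1, Lss and Dhcr7 were under the 0.5 filter in dorDG. Sqle was 0.63, 0.75, 0.37 and 0.7 in the FT replicates and ran from 0.35 to 0.47 in the Sham replicates, and 3 of 4 FT replicates stood above the Sham range. The other 3 had nearly equal group means: Fdft1 0.41 ± 0.14 in FT and 0.45 ± 0.09 in Sham, Lss 0.42 ± 0.17 and 0.45 ± 0.16, and Dhcr7 0.17 ± 0.03 and 0.16 ± 0.04. In all, 2 of the 4 members tested in dorDG were called higher, beside 12.4% of all genes. With all 8 tested at the filter of 0.1, none was called, beside 0.929% of genes called in either direction. There Sqle came nearest, at 0.77 ± 0.25 (adjusted p = 0.219). The calls rested on single replicates: without FT replicate 2, 4 or 5 or Sham replicate 1, 3 or 5 neither Hmgcs1 nor Fdps was called, and the difference of Hmgcs1 lay between 0.52 (without FT replicate 5) and 0.82 (without Sham replicate 2) throughout. The share over all genes was no steadier: 1221 genes were called in either direction with all replicates, 0 without FT replicate 4 or 5 or Sham replicate 3 or 5, 1 without Sham replicate 1 and 1969 without Sham replicate 2.

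In venDG, Hmgcs1 was 0.91, 1.77, 2.07, 1.14 and 2.04 UMIs per 10000 in FT replicates 1 to 5 and 1.1, 0.96, 1.14, 1.248 and 1.18 in Sham replicates 1 to 5. FT replicates 2, 3 and 5 were above all Sham replicates. The log2 fold change of 0.51 ± 0.24 was not called (adjusted p = 0.763). Idi1 had a lower mean in FT there, 1.73 ± 1.08 against 1.97 ± 0.39, and differed by -0.18 ± 0.34 (adjusted p = 0.949). Sqle differed by 0.45 ± 0.33, with FT replicate 3 alone at 1.12 and the other FT replicates between 0.33 and 0.62. Its Sham mean of 0.44 was under the filter. The differences of Insig1 (0.14 ± 0.28) and Fdps (0.07 ± 0.19) were below their SE. Of the 5 members tested 0 were called, and neither was any other gene (0% of 4079 by edgeR, with 237 at an unadjusted p under 0.05; limma called 0 genes and DESeq2 22, no member among them).

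Over both regions, with region as a covariate, Hmgcs1 was higher in FT by 0.56 ± 0.18 (adjusted p = 0.112) and Sqle by 0.55 ± 0.21 (adjusted p = 0.118) on the log2 scale, beside 13.8% of genes called higher. This fit took dorDG and venDG sums as independent, although the methods of the study describe both regions as punched from the brains of each treatment group. Where the regions of a replicate number share animals, its p-values may be too small. The filter let Sqle in through its FT replicates. Its means were 0.61 (dorDG) and 0.6 (venDG) in FT but 0.39 and 0.44 in Sham, under the filter. Fdps (0.25 ± 0.14, adjusted p = 0.221), Idi1 (0.2 ± 0.29) and Insig1 (0.16 ± 0.23) were not called. The median over the 5 members tested was 0.25 and that over all genes -0.05. With all 8 tested at the filter of 0.1, Hmgcs1 (0.63 ± 0.19) and Sqle (0.62 ± 0.22) were again the 2 called, beside 4.75% of genes called higher, and Lss (-0.14 ± 0.2), Dhcr7 (0.02 ± 0.23) and Fdft1 (0.09 ± 0.17) differed by less than their SE. Without dorDG FT replicate 4 neither Hmgcs1 nor Sqle was called. In the test of the region by treatment interaction, 0 of 5 members and 0% of 4161 genes were called (404 at an unadjusted p under 0.05; limma 0 genes, DESeq2 8). The largest difference of responses, 0.81 ± 0.56 for Idi1 (dorDG minus venDG, adjusted p = 0.675), was called without dorDG Sham replicate 2 (1.31, adjusted p = 0.193). Idi1 itself was flagged in that replicate, as given below, and how many of all genes were called without it is not given here.

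Other genes of the pathway moved beside them. Of 15 further sterol synthesis enzymes, 3 were measured above the filter over both regions, and Msmo1 (0.64 ± 0.22, adjusted p = 0.112) and Cyp51 (0.57 ± 0.16, adjusted p = 0.112), which remove methyl groups from lanosterol and its products, were called higher, beside the 13.8% of all genes. In dorDG alone Msmo1 was 1.05 ± 0.33 and Cyp51 0.59 ± 0.24, both called higher, beside 12.4% of all genes. Like all calls in dorDG, these did not hold without some of the single replicates named above. Npc2, which hands cholesterol on inside the lysosome, was called higher over both regions (0.62 ± 0.22) and in dorDG (0.73 ± 0.35), the only gene called among 8 of uptake and transport, of which 4 and 5 were tested. Abcg1, a cholesterol exporter, was called lower in dorDG at -0.56 ± 0.22 (adjusted p = 0.172), 1 of 2 export genes tested, beside 16.1% of all genes called lower, and over both regions it was -0.28 ± 0.15 and not called. None of the 2 of 6 sensing genes and 3 of 9 fatty acid genes that were tested was called in either comparison. The lowest differences over both regions were those of Scap (-0.32 ± 0.13), Abcg1 and Fads2 (-0.1 ± 0.28), none of them called. In the first reactions alone Msmo1 differed by 0.06 ± 0.34, Cyp51 by 0.18 ± 0.23 and Npc2 by 0.08 ± 0.3, and none was called.

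The makeup of the samples moved with these differences. The summed astrocyte markers were 9.45 ± 2.2 UMIs per 10000 in dorDG FT (7.04 to 12.2) and 6.13 ± 2.86 in Sham (2.44 to 9.07), while the oligodendrocyte markers were 97.9 ± 28.1 (72.7 to 133) and 104 ± 64.4 (64.4 to 217). The share of Oligodend2 among dorDG cells was 9.15% ± 2.86 with FT and 6.56% ± 4.43 with Sham, and that of InhibNeuron, the type with the lowest mean for the members, was 4.86% ± 3.35 and 17.1% ± 11.8. Cells named Mossy were 8.64% ± 0.68 with FT and 2.87% ± 2.41 with Sham. In venDG the astrocyte markers were 11.5 ± 3.9 in FT and 7.06 ± 3.75 in Sham, and the part of all these in the differences was not tested. Restricted to cells of at least 2% ribosomal UMIs, Hmgcs1 in dorDG averaged 1.85 ± 0.64 over the 4 FT replicates and 1.57 ± 0.33 over the 5 Sham replicates, a log2 difference of 0.22 ± 0.26. Fdps was 0.18 ± 0.18 and Idi1 0.05 ± 0.44 in these cells, and no member and no gene was called. Over both regions Hmgcs1 was 0.33 ± 0.18 and Sqle 0.2 ± 0.22 in the same cells (adjusted p = 0.993). With the share of low-ribosomal cells as a covariate the Hmgcs1 difference stayed near its size, 0.67 ± 0.4 in dorDG and 0.51 ± 0.21 over both regions, but was not called (adjusted p = 0.999 and 0.968), whereas Fdps in dorDG was 0.11 ± 0.31. Among replicates of 1 reaction, dorDG FT (n = 2) and Sham (n = 3) differed in Hmgcs1 by 0.96 ± 0.39 (adjusted p = 0.166) and in Idi1 by 1.04 ± 0.42 (adjusted p = 0.17), 2 of 5 members called higher beside 8.94% of genes, and these had 15.2% to 16% and 33.3% to 73% low-ribosomal cells.

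In the replicates with 2 reactions, no member was called between FT and Sham over the first or over the second reactions. Over the first reactions (2 replicates per group and region), where the share of low-ribosomal cells ran from 4.08% to 18.4%, 0 of 5 members tested were called and 0% of 3601 genes (265 at an unadjusted p under 0.05; limma 0, DESeq2 22). Hmgcs1 differed by 0.2 ± 0.28 and Sqle by 0.16 ± 0.23. Idi1, at -0.39 ± 0.34, Insig1, at -0.2 ± 0.23, and Fdps, at -0.07 ± 0.18, lay below 0. Over the second reactions only Fdps passed the filter, at -0.21 ± 0.33, and 0 genes were called (0% of 4553, 155 at an unadjusted p under 0.05, 0 by limma and by DESeq2).

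**Figure D5:**
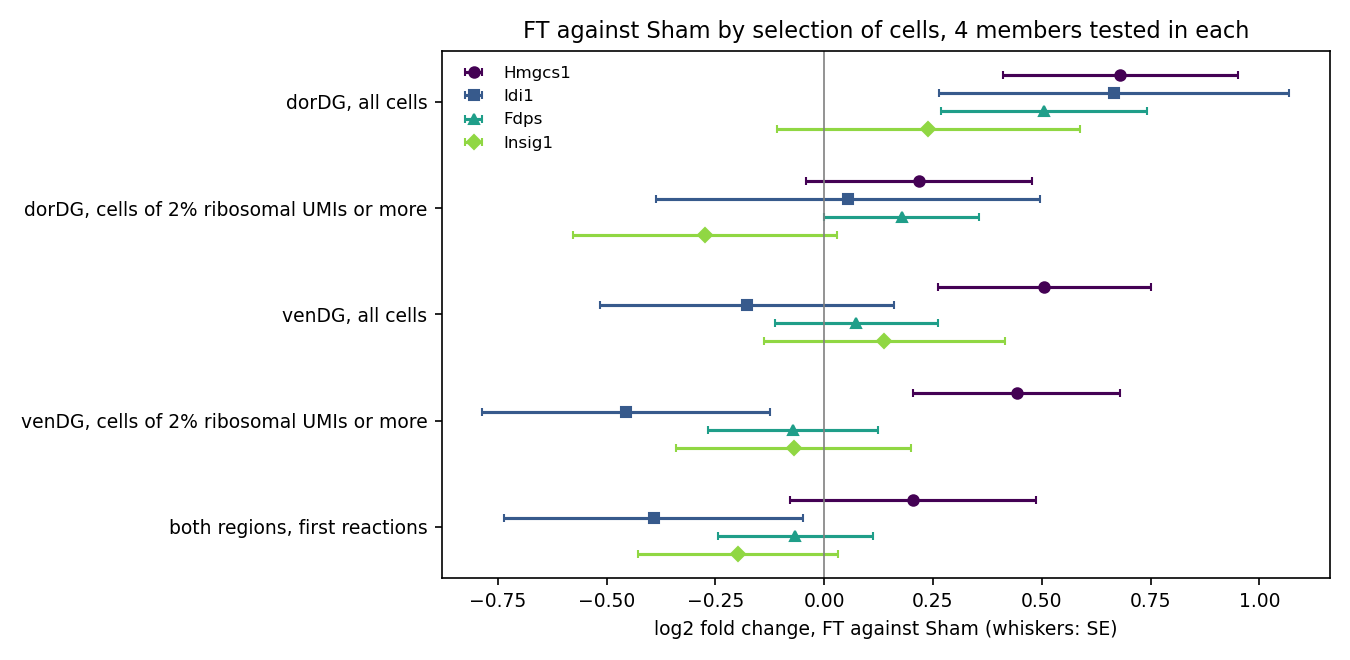
Log2 fold change of FT against Sham (x axis, whiskers are SE) of the 4 members tested in each of 5 selections of cells or reactions (y axis). In dorDG all 4 lie above 0 over all cells (0.24 to 0.68). In dorDG cells of at least 2% ribosomal UMIs they lie between -0.27 and 0.22. Idi1 lies below 0 in venDG. In the first reactions Idi1, Insig1 and Fdps lie below 0 and Hmgcs1 above it.

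Within dorDG cell types no member was called. In 9 types with at least 3 replicates of 5 cells per group, 40 tests of a member in a type were made, 26 with a positive difference and 0 called, beside 0.668% of all gene by type tests (2072 at an unadjusted p under 0.05; DESeq2 called 197 and limma 8, no member among them). Lss in Oligodend2 differed most. It was 0.98, 1.21, 0.64 and 1.83 UMIs per 10000 in FT replicates 1, 2, 4 and 5. In Sham replicates 1, 2 and 3 it was 0, 0.21 and 0.2. The filter let it in through the FT replicates, with means of 1.16 in FT and 0.14 in Sham. The 4 FT replicates rested on 8, 10, 4 and 18 UMIs and the 3 Sham replicates on 0, 3 and 1. The log2 fold change was 2.99 ± 0.7 (adjusted p = 0.507), and at the filter of 0.1 UMIs per 10000 it was called (2.98 ± 0.71, adjusted p = 0.0668). It was the only call of a member in any type at that filter, for which the share of all genes called is not given here. Lss lay the other way in cells named Granule, at 0 to 0.18 in 4 FT and 0.29 to 0.91 in 5 Sham replicates. It rested on 15 UMIs in all there and was not called at the filter of 0.1 (-2.57 ± 1.16, adjusted p = 0.595). In cells named InhibNeuron it was 0.35 and 0.49 in 2 FT replicates and 0.75 to 1.1 in 4 Sham replicates, too few FT replicates for the test.

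The other members in Oligodend2 overlapped between the groups. Idi1 was 10.1, 23.9, 3.97 and 12.6 in FT and 2.6, 8.49 and 8.74 in Sham, a log2 difference of 0.96 ± 0.46. FT replicate 2 was the highest of all and FT replicate 4 lay inside the Sham range. Sqle differed by 0.91 ± 0.43, Fdps by 0.84 ± 0.39 and Hmgcs1 by 0.72 ± 0.39 in these cells (adjusted p = 0.999 each), and Fdft1 by -0.49 ± 0.51. In AstroSub1, the only type in which all 8 members passed the filter, 5 differences were positive, led by Sqle at 1.61 ± 0.8 and Fdps at 1.05 ± 0.55, and Lss was lowest at -0.64 ± 0.7. The Sqle mean there was 0.89 ± 0.2 in FT and 0.38 ± 0.35 in Sham, so that the Sham replicates by themselves were under the filter. In OPC the 4 members tested lay between -0.32 and 0.09 and in Microglia1 the 5 tested between -0.79 and 0.37.

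No member was called between the regions in the main fits, which had no replicate block. With the block, Idi1 was called between regions in FT. How many of all genes were called in that blocked fit is not given here, so this call has no background beside it. In Sham replicates the 8 genes together were 5.76 ± 1.3 UMIs per 10000 in dorDG (n = 5) and 6.27 ± 0.67 in venDG (n = 5), and in FT replicates 7.82 ± 1.89 (n = 4) and 6.76 ± 1.99 (n = 5). Of the members tested, 0 of 4 were called between regions in Sham (0% of 4313 genes, 361 at an unadjusted p under 0.05, 0 by limma and 155 by DESeq2, and 105 by edgeR with the replicate block, no member among them) and 0 of 5 in FT (0.275% of genes). The largest differences were in Idi1, at -0.39 ± 0.36 in Sham and 0.46 ± 0.39 in FT (dorDG minus venDG). Without dorDG Sham replicate 2 the Sham difference was called (-0.97, adjusted p = 0.0952). That replicate was flagged for its Idi1 level, as given below, and the share of all genes called without it is not given here.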

How the data were processed

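The deposited tables hold UMI counts per gene and cell for dorDG and venDG, which the authors made with Cell Ranger, filtered and annotated with Seurat; the build, rn5, is named in the submitters' processing notes without a role. The authors' dorDG annotation gave the cell types, the other deposited columns of that annotation (scores and percentages among them) were not used, and the deposited log-normalized venDG values were left out as a transform of the same counts. Groups came from the labels. Reactions of a replicate number were summed, and 170 venDG columns whose reaction name no label explains were not used. No doublet caller was run; 9 barcodes recurred between reactions.

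Counts summed per replicate were tested with edgeR 4.0.16 (quasi-likelihood F-test, TMM, mean of at least 0.5 UMIs per 10000, adjusted p at most 0.2, absolute log2 difference of at least 0.32, the study's thresholds), with SEs taken from the F statistic. DESeq2 1.42.0 and limma 3.58.1, the latter on log2(UMIs per 10000 + 0.01), were alternatives, with other filters, each replicate left out, a replicate block and subsets of cells. Scripts were tested on simulated data. The members and lists were chosen with earlier results of these data known; all 8 members are named, with list genes that were called or among the 3 highest or lowest over both regions, and the 5 genes outside the lists most like the members over types. Of the list genes, 42 were in the tables. One cell type marker is not reported here and was left out of its list.

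All 36 pairs of replicates within groups differed by more than counting noise (chi-square of 2.97 to 17.1 for each degree of freedom). Replicate numbers paired Sham samples between regions (correlations of their deviations 0.2 to 0.56, all above 0.1), but not FT against Sham (-0.22 to 0.36). For FT between regions the correlations were 0.34, 0.26, 0.35 and 0.096 in replicates 1, 2, 4 and 5. The main fits between regions used no replicate block. Replicates are pools named by the labels, and p-values measure the spread between them. Depth limits the members: Dhcr7 had 99 UMIs in dorDG and 124 in venDG, Lss 262 and 277, and Idi1 1158 and 1578.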

Additional observations from a re-analysis of the deposited data

Results flagged for a closer look

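In dorDG Sham, Idi1 in replicate 2 (3.09 UMIs per 10000) and the 8 genes together in the same replicate (7.999 UMIs per 10000) stood apart from the other 4 replicates by Dixon's test. In Endothelial cells of dorDG, FT replicate 5 was low for the 8 genes together (3.22 UMIs per 10000, 15 UMIs in 7 cells) beside 4.78 to 4.81 in the other FT replicates. Chance gives such a flag in about 1 of 20 groups, and 3 of 52 groups examined were flagged. The 170 venDG columns left out held 78 UMIs of the 8 genes, 2.65 per 10000, beside 1.98 in the other 177 columns of the same reaction.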

How the results depend on the processing

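The count of members called in dorDG (2 of 4) was 1 with limma and with the study's cell filter. It was 0 at a filter of 0.1, without a filter, with the replicate block, in cells of at least 2% or under 2% ribosomal UMIs, without the outlier replicate of the study's rule (dorDG FT replicate 2) and with the share of low-ribosomal cells as a covariate, an alternative added after seeing the data. In replicates of 1 reaction, also added after seeing the data, it was 2 of 5. Leaving out 1 replicate gave 0 to 3, with 3 without Sham replicates 2 or 4, 0 without FT replicates 2, 4 or 5 or Sham replicates 1, 3 or 5 and 1 without FT replicate 1. Of all genes, 1221 were called in dorDG, 1849 by DESeq2, 105 at a filter of 0.1, 207 without a filter, 615 with the study's cell filter, 8 in low-ribosomal cells and 0 with the replicate block, in the other cells and with the covariate; over both regions the count was 1323, 6 without a filter and 0 in either set of cells, with the covariate and in replicates of 1 reaction. The count over both regions (2 of 5) was 0 without a filter, in either set of cells, with the covariate and in replicates of 1 reaction, and 0 to 2 leaving out 1 replicate (0 without dorDG FT replicate 4, and 1 without dorDG FT replicate 1, 2 or 5, venDG FT replicate 3 or 5 or venDG Sham replicate 4). Between reactions 6 members were called at a filter of 0.1 and without a filter, and 3 to 4 leaving out 1 replicate (4 without dorDG FT replicate 1). Within cell types 1 was called (Lss in Oligodend2) at a filter of 0.1 and without a filter, beside a share of all genes that is not given here. With the replicate block, Idi1 was called between regions in FT (1 member, 0.9, adjusted p = 0.0959), beside a share of all genes that is not given here. Hmgcs1 and Sqle stayed called over both regions with it (0.51 and 0.52). Over both regions this block joins FT and Sham samples of a number, so it does not account for animals shared between regions. Leaving out 1 replicate gave 0 to 1 for the interaction and for regions in Sham, each 1 without dorDG Sham replicate 2, the replicate flagged above for Idi1. It gave 0 for venDG, regions in FT, first and second reactions and cell types. No called value changed sign, and of 1331 alternative values of single members 103 changed sign, none of them called in either fit, 42 lost a call and 7 gained one. The summed levels by type moved by less than 1 SD when cells were pooled over replicates. In cells of at least 2% ribosomal UMIs the same held for types with 2 or more replicates of such cells. Granule (1 such replicate) and ExcitNeuron (0) were not compared. Their pooled levels in these cells, 8.05 and 5.49, were more than 1 SD above the means in all cells (4.014 ± 1.555 and 3.52 ± 1.57). The causes were not tested.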
